A study of Homo sapiens with 22 samples.

Results

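The comparison described here set a knockout clone of SMYD3 against the line it came from. SMYD3 encodes a lysine methyltransferase. The clone, labelled 5-3, was made in HN-6 and was compared with parental HN-6, a line of human squamous cell carcinoma cells from the head and neck. Its 6 libraries, 3 of the clone and 3 of the parental line, were taken from the 22 libraries of the series by their titles, and every gene of their shared table was used. Cells of both groups had received human interferon-β at 1000 U/ml for 24 h before collection, so neither group shows the line without interferon. The knockout is 1 clone, so what SMYD3 does and what sets this clone apart from the cells it was picked from cannot be told apart by these libraries alone. Libraries of HN-6 given a SMYD3 siRNA or its negative control siRNA (3 each), or the SMYD3 antisense oligonucleotide (ASO) 081 or phosphate-buffered saline (PBS, 2 each), with 72 h of depletion and the same interferon treatment, served to compare the clone with a short loss of SMYD3. The submitters call the replicates biological, and the labels do not say that they came from separate clones or days, so p-values measure the spread between these samples.

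A squamous cell is anchored from below by hemidesmosomes, in which the integrin α6β4 grips laminin-332 of the basement membrane, and by focal adhesions, in which other integrins grip fibronectin, collagens and further laminins. Desmosomes and adherens junctions hold the cells to each other. Around the cells lies a matrix of collagens and glycoproteins that is laid down, crosslinked and cut by secreted enzymes. Inside them, chaperones fold new and damaged proteins, the sterol and fatty acid pathways supply membranes, and mitochondria draw on 2 genomes, the nuclear one and their own. These groups, and not the interferon response, are what is described below for the clone.

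The authors scaled the reads of each gene by a factor for its library, and the results are called normalised counts here. They are not scaled by gene length, so they compare a gene between libraries and not 1 gene with another. SMYD3 itself stood at 343, 309 and 314 normalised counts in the 3 parental libraries and at 113, 91.5 and 76.3 in the 3 clone libraries, with no overlap. It fell by 1.79 on the log2 scale (SE 0.13, limma adjusted p = 4.85e-09), and the transcript was therefore reduced in the clone, not absent. In bulk RNA fewer cells with a transcript and less of it per cell cannot be told apart. On the log2(CPM + 1) scale (CPM, the usual scaling of reads to library size) that all designs share, SMYD3 changed by -1.51 in the clone, by -2.07 ± 0.11 (SE) with the siRNA and by -2.25 ± 0.13 with the ASO.

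Of 17391 genes in the table, 16941 passed the filter, and 84.7% of them differed between clone and parental line at an adjusted p below 0.05, 42.1% higher and 42.6% lower in the clone. A called difference is thus the rule here and not the exception, and size says more: 14.4% of the genes were called and at least 2-fold higher, and 22.2% called and at least 2-fold lower. The groups did not overlap for 85.8% of genes. The median change over all genes was -0.02 on the log2 scale, with quartiles of -0.88 and 0.63. The changes moved with level: the nuclear protein-coding genes of the lowest of 8 bins of mean normalised count had a median of -1.06 and those of the highest bin one of 0.57 (Spearman's rho 0.37 over 13624 genes, which share the same 6 libraries). They also moved with gene type, with medians of 0.13 for protein-coding genes, -0.98 for lincRNAs and -1.07 for antisense genes. Protein-coding genes of chromosome 9 had a median of 0.53 (544 genes) and those of chromosome 13 one of -0.30 (220 genes), and of the genes described below TNC, RECK, DNAJA1, BAG1, ABCA1, SLC27A4, VLDLR, MRPS2 and NIBAN2 lie on chromosome 9. Described genes that lie on chromosome 13 are not listed here. The part of level, gene type or chromosome in the results below was not tested. Of the genes named below, PARVB, COL4A3, COL4A4, COL8A1, EFEMP2, ADAMTS14, MMP12, MLXIPL and PLA2G4A passed the filter only through the parental libraries and COL6A3 only through those of the clone. They could pass only by differing, and their fold changes rest on few reads on the low side. Scaling matters as well: with upper quartile factors the median over all genes was -0.30 and with equal totals outside mitochondrial genes -0.39, so a small change in either direction is relative to the scaling used.

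Recovered reads per library ran from 24783605 to 47702859. Of 10 squamous markers, 8 were higher and 2 lower in the clone. KRT6A, a keratin of activated squamous cells, rose by 5.42 ± 0.11 on the log2 scale (SE), and the basal keratins KRT14 and KRT5 rose by 1.58 (from 54 to 157 reads over 3 libraries) and 0.95. KRT15, another basal keratin, changed by -1.94 and TP63, the squamous lineage factor, by -0.18. Among markers of other cell types, 3 of 7 fibroblast, 2 of 6 endothelial, 3 of 7 leukocyte and 1 of 5 melanocyte markers passed the filter on low values. Of reads outside mitochondrially encoded genes, the fibroblast markers together took 0.00766% in the parental line and 0.00165% in the clone. Of 5 markers of simple epithelium 4 passed, and that list took 1.02% of these reads in the parental line and 0.918% in the clone. The squamous markers took 0.157% and 0.159% of the same reads. Both lines thus carried squamous markers together with simple epithelial ones, 2 of which were higher and 2 lower in the clone.

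Across the 5 gene groups the clone leaned in different directions. Of 99 tested adhesion genes 71 were called higher (71.7%) and 18 lower (18.2%), with a median of 0.75. Of 114 chaperones 77 were higher (67.5%) and 22 lower (19.3%), with a median of 0.46. These shares lie near those of nuclear protein-coding genes at the same level: in the bin of mean normalised counts that holds the median level of both groups, 68.9% were higher and 21.96% lower, with a median of 0.43. The counts are therefore no result about adhesion genes or chaperones as groups, and the members are described below one by one. Mitochondrial genes were at 143 of 274 higher and 94 lower (median 0.16), matrix genes at 58 of 124 higher and 52 lower (median 0.08), and lipid genes at 61 of 149 higher and 67 lower (median -0.03). The matrix and mitochondrial medians became negative with upper quartile factors and with equal totals. For at least 2-fold changes, the counts were 38 higher and 9 lower for adhesion, 29 and 35 for matrix, 24 and 8 for chaperones, 18 and 24 for lipid and 30 and 21 for mitochondria. Scaling shifted these splits. With upper quartile factors 5399 genes of the whole table were called higher and 9044 lower, against 7134 and 7209 as scaled by the authors. The same factors gave 62 higher and 27 lower for adhesion, 62 and 41 for chaperones, 100 and 139 for mitochondria, 48 and 64 for matrix and 47 and 85 for lipid genes. Adhesion genes and chaperones thus still had more members higher than lower, while the mitochondrial and matrix splits turned. Because of this, each list below is given with its split under upper quartile factors where that differs by much. Splits of single lists are likewise to be read beside genes of their level. In the highest bin of mean normalised counts 73.6% were higher and 18.8% lower.

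**Figure D1:**
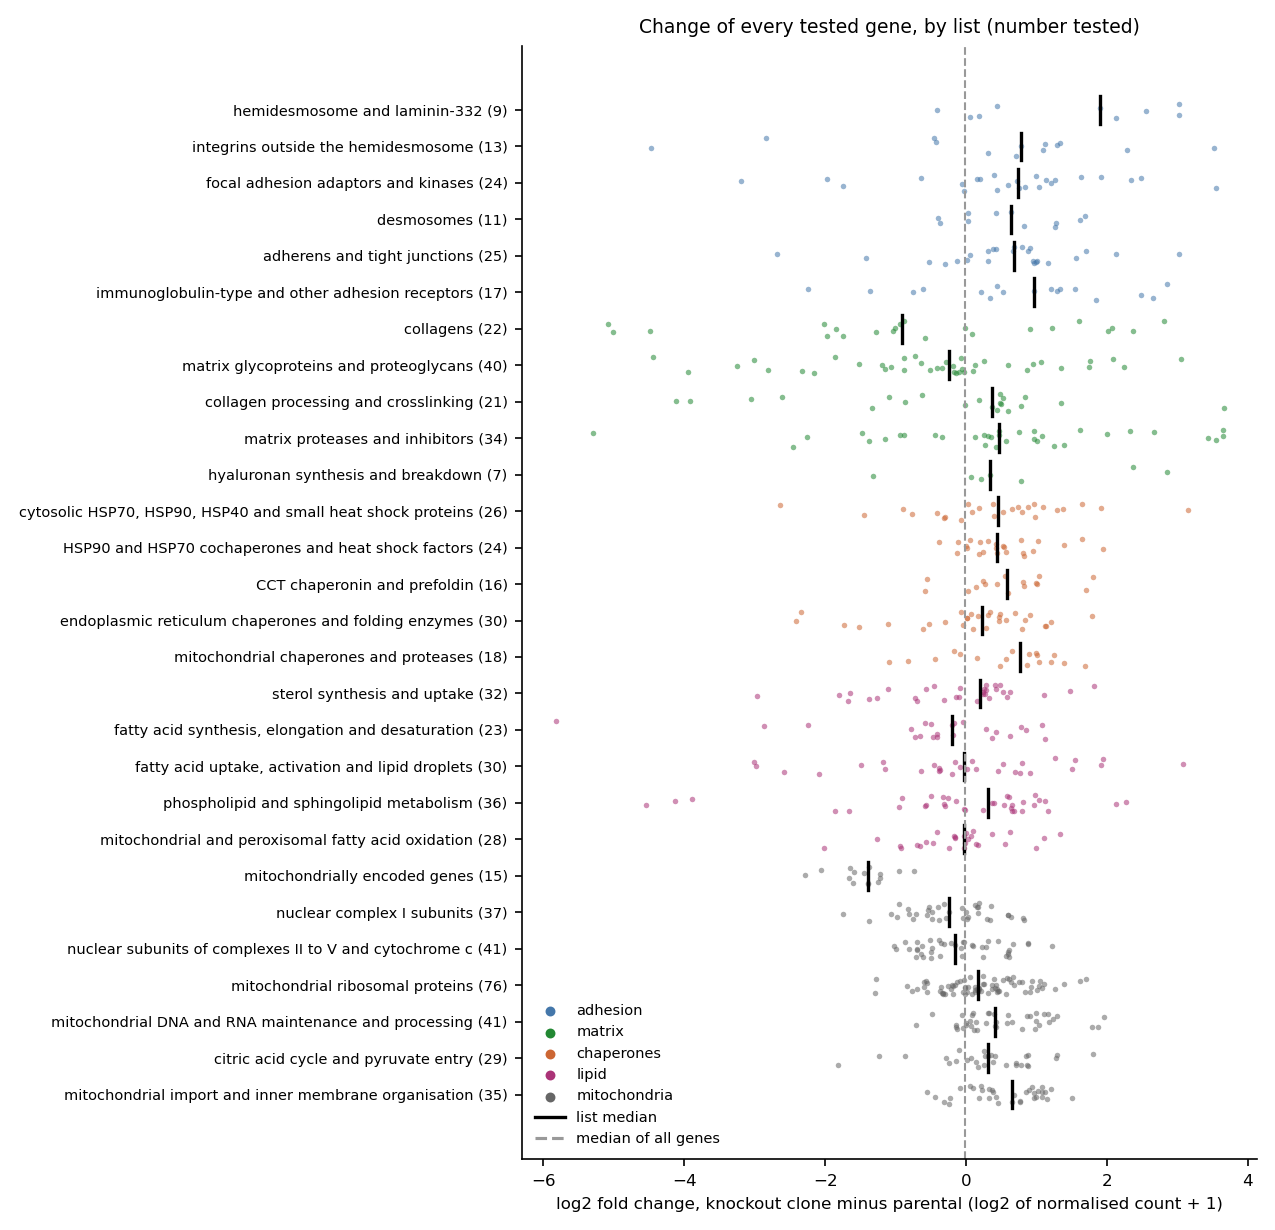
Log2 fold change (clone minus parental, x axis) of every tested member of the 28 gene lists (y axis), 1 point per gene, with a bar at each list's median and a dashed line at the median of all genes. The hemidesmosome list sits farthest to the right (median 1.90) and the mitochondrially encoded genes farthest to the left (median -1.39).

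Laminin-332 and the α chain of its receptor rose together in the clone. The laminin chain genes LAMA3 and LAMB3, the collagen XVII of the hemidesmosome and the α6 integrin subunit rose at least 3.7-fold, while the β4 subunit did not pass the test. Of the 9 tested genes of the hemidesmosome list, 7 were called higher, 1 lower and 1 was not called, and 5 were at least 2-fold higher (6 higher, 2 lower and again 5 with upper quartile factors). At their level 73.6% of nuclear protein-coding genes were higher and 18.8% lower, against 77.8% and 11.1% here. The list took 0.337% of reads outside mitochondrially encoded genes in the parental line and 0.636% in the clone. The promoters of 2 laminin genes are shown because both changed together and both hold the binding motif of AP-1, the FOS and JUN family of transcription factors. The sequences are from RefSeq on GRCh38.p14, the 250 bases before the start site, 5′ to 3′ on the gene's strand, at chr18:23872770-23873019 (plus strand) for LAMA3 and chr1:209651375-209651624 (minus strand) for LAMB3. LAMB3 has 3 annotated start windows, of which only the 1 shown holds the motif. Capitals mark TGANTCA, a motif that reads the same on both strands.
LAMA3: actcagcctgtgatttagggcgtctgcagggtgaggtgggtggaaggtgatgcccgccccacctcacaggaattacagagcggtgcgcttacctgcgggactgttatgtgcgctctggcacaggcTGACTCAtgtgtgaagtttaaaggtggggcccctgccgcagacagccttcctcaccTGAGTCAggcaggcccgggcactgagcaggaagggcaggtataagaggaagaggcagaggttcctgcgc
LAMB3: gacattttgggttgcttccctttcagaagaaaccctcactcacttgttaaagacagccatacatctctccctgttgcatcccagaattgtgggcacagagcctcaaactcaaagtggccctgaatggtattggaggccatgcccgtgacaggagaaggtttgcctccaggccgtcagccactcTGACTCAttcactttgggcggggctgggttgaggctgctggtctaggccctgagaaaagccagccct
The matches begin at -125 and -69 from the LAMA3 start and at -67 from the LAMB3 start. The motif is in 6.57% of the 35116 windows of all genes and in 6.21% of the 145 windows of the adhesion genes, and a match is a description of the letters, not a bound site.

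The β3 chain gene LAMB3 read 5226, 5514 and 5314 normalised counts in the parental libraries and 43899.8, 41880.3 and 44182 in the clone. For LAMA3, the α3 chain, the values were 7695, 8015 and 7916 against 34161, 36331 and 33432. The genes lie on different chromosomes and the groups of neither overlapped, with changes of 3.02 ± 0.03 and 2.14 ± 0.04 (SE) on the log2 scale and adjusted p of 1.16e-17 and 5.19e-16 (limma). COL17A1, the transmembrane collagen that spans the hemidesmosome, went from 802, 865 and 824 to 4874, 4968 and 4844, and COL17A1 rose by 2.56 ± 0.04. The α6 integrin gene ITGA6 read 6229.7, 6597 and 6312 in the parental line and 22938, 25555 and 23001 in the clone, a rise of 1.90 ± 0.04. Its partner ITGB4 read 18756, 16231 and 18772 against 18477, 17953 and 19510.1, with overlapping groups and a change of 0.06 ± 0.05 that was not called (adjusted p = 0.323). The α and β chain genes of the receptor therefore moved unequally at the level of RNA. The tetraspanin CD151, which binds α6 and α3 integrins, and plectin (PLEC), which ties the hemidesmosome to keratin, rose by 0.44 and 0.18, and dystonin (DST), the other linker to keratin, fell, at -0.41. The change of PLEC turned to -0.10 with upper quartile factors and -0.19 with equal totals, and it was 0.19 and not called without clone replicate 2, while that of CD151 was 0.07 and not called with equal totals.

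The siRNA and the ASO did not carry the laminin rise to the same size. LAMB3 changed by 0.67 ± 0.11 with the siRNA and by 0.06 ± 0.14 with the ASO. LAMA3 changed by 0.14 ± 0.07 and 0.16 ± 0.09. COL17A1 changed by 1.44 ± 0.07 and 0.58 ± 0.09 and ITGA6 by 0.58 ± 0.08 and 0.02 ± 0.09. On the log2(CPM + 1) scale the clone's change exceeded that of the siRNA by 2.32 ± 0.16 for LAMB3 and 1.98 ± 0.10 for LAMA3 (limma adjusted p = 2.88e-10 and 3.66e-13), and that of the ASO by 2.93 ± 0.18 and 1.95 ± 0.11 (adjusted p = 1.13e-10 and 6.89e-12). These sizes are read against a background in which 76.5% of 14554 genes differed between the clone's change and the siRNA's and 72.2% of 14579 between the clone's and the ASO's. The other laminin chains went in both directions. LAMC1 and LAMB1, chains shared by several laminins, rose by 1.06 and 0.60, but LAMA5, the α chain of laminin-511, changed from 20722, 16679 and 19173 to 3816, 3553 and 3876 (-2.33 ± 0.07) and LAMB2 by -1.07.

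Among 13 other integrin subunits tested, 9 were higher and 3 lower. ITGA2, which with β1 forms a collagen and laminin receptor, read 589, 617 and 634 in the parental line and 6780.05, 7794 and 6585 in the clone, and it rose by 3.52 ± 0.06 (adjusted p = 5.84e-16). The vitronectin receptor subunit ITGB5 read 1019.7, 1032 and 1004 against 5087, 4855 and 5011, a rise of 2.29 ± 0.04. ITGB1, the β subunit common to most of these receptors, read 11256, 11668 and 11581 against 24836, 26378 and 24049.8, a rise of 1.12 ± 0.04. All clone libraries stood above all parental ones for these 3 genes. ITGA5, the fibronectin receptor α subunit, and ITGA3, another laminin receptor subunit, rose by 1.29 and 0.78. On the other side, ITGA4, an α subunit best known from leukocytes, read 326, 326 and 317 in the parental line and 28.7, 16.4 and 5.09 in the clone (1004 and 55 reads over 3 libraries each), and fell, at -4.47 ± 0.61. The clone libraries of ITGA4 differ among themselves by more than those of the parental line, and all are lower. ITGA10, a collagen receptor subunit, changed from 146, 149.6 and 151 to 20.8, 21.6 and 17.8 (-2.84 ± 0.17, 64 clone reads), and ITGB8, which serves in activation of latent TGF-β, by -0.46. With the siRNA ITGA2 changed by 0.94 ± 0.09 and ITGA4 by 0.48 ± 0.12, and with the ASO by 0.29 ± 0.11 and -0.48 ± 0.14.

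Of 24 tested focal adhesion adaptors and kinases, which couple integrins to actin, 18 were higher and 4 lower (16 and 7 with upper quartile factors). That is 75% and 16.7%, near the 68.9% and 21.96% of nuclear protein-coding genes at the same level. The list's share of reads outside mitochondrially encoded genes went from 0.383% to 0.780%, a sum weighted towards abundant members such as FLNA. Tensin 4 (TNS4), an epithelial tensin that binds β integrin tails, read 431, 358 and 366 in the parental line and 4464, 4576 and 4509 in the clone. Filamin A (FLNA), an actin crosslinker, read 14953, 14199 and 14872 against 73239, 74333 and 75067. Kindlin-1 (FERMT1), the integrin activator of keratinocytes, read 884, 783 and 807 against 4676, 4801 and 4414. The rises of these 3 were 3.55 ± 0.06, 2.34 ± 0.03 and 2.49 ± 0.05, with no overlap. Among the genes that fell were parvin β (PARVB, -3.20, from 157 reads in 3 parental libraries to 15 in 3 clone libraries), tensin 2 (TNS2, -1.97) and talin 2 (TLN2, -1.75).

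**Figure D2:**
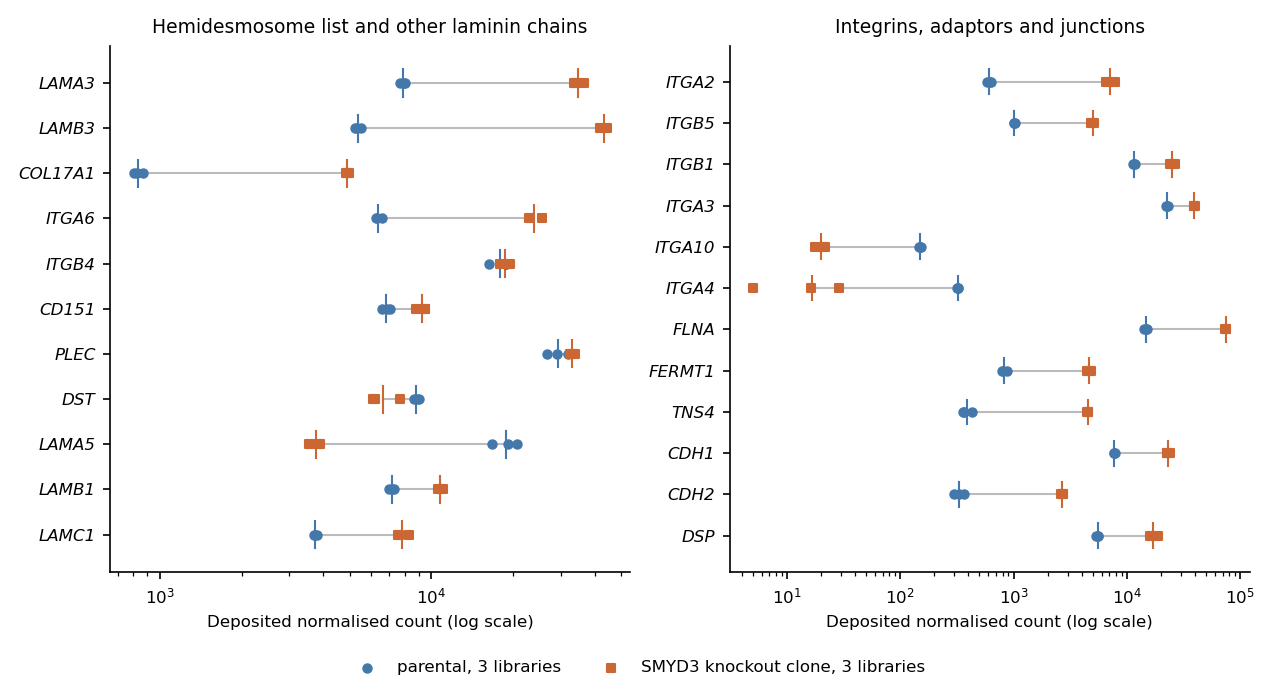
Normalised counts (log axis) of 23 adhesion genes in each of the 3 parental and 3 clone libraries, 1 point per library, laminin and hemidesmosome genes in 1 panel and integrins, adaptors and cadherins in the other, with short bars at group means. The LAMA3, LAMB3 and ITGA2 points of the clone stand clear above the parental points, those of ITGB4 overlap, and those of ITGA4, ITGA10 and LAMA5 stand below.

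Cell to cell junctions gained both an epithelial and a mesenchymal cadherin. CDH1, E-cadherin, read 7703, 7794 and 7716 in the parental line and 22447, 23878 and 22513 in the clone, a rise of 1.57 ± 0.03. CDH2, N-cadherin, read 301, 367 and 328 against 2596, 2739 and 2746, a rise of 3.02 ± 0.07. Neither gene's groups overlapped, so the clone's cadherins did not trade places at the level of RNA. β-catenin (CTNNB1), which binds the tail of both, rose by 1.70. TJP3, a scaffold of tight junctions, and CLDN3, a tight junction strand protein, fell, at -2.69 and -1.42. In all, 18 of 25 adherens and tight junction genes were higher and 4 lower (14 and 7 with upper quartile factors). Those 72% and 16% lie near the 73.6% and 18.8% of nuclear protein-coding genes at the same level.

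Of 11 desmosomal genes 7 were higher (63.6%) and 2 lower (18.2%), beside 68.9% and 21.96% of nuclear protein-coding genes at their level. Desmoplakin (DSP), the plaque protein that anchors keratin, read 5324, 5596 and 5609 in the parental line and 16059.99, 18613 and 16364 in the clone, a rise of 1.62 ± 0.05. Plakophilins PKP1 and PKP2 rose by 1.68 and 1.28 and desmoglein 3 (DSG3), the cadherin of basal squamous cells, by 1.27. PERP, a membrane protein of desmosomes, changed by -0.39. Of 17 other adhesion receptors 12 were higher (70.6%) and 4 lower (23.5%), near the same 68.9% and 21.96%. MCAM, CDH13 and the tetraspanin CD82 rose by 2.85, 2.65 and 2.48, and CD44, the hyaluronan receptor, by 1.85, from 11319, 11982 and 11602 to 41549.6, 43375 and 41033. BCAM, a receptor for the laminin α5 chain, fell, at -2.24 ± 0.09, from 4786, 3818 and 4599 to 961, 846 and 985, in the same direction as LAMA5 itself.

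The matrix genes split in 2 directions by family and within families. Collagens leaned lower, at 7 higher and 13 lower of 22 tested and 6 and 10 at 2-fold or more, while their summed share of reads outside mitochondrially encoded genes was 0.151% in the parental line and 0.143% in the clone. The chains of collagen VI, a microfibrillar collagen, rose and the α3 and α4 chains of collagen IV, of specialised basement membranes, fell. COL6A1 read 1698, 1519 and 1594 in the parental line and 8262, 7959 and 8636 in the clone. COL6A2, its head to tail neighbour on chromosome 21, read 735, 648 and 682 against 2823, 2728 and 2794. The rises were 2.37 ± 0.05 and 2.02 ± 0.05, with no overlap. COL6A3, the α3 chain gene, was barely detected (7 reads over 3 parental and 62 over 3 clone libraries).

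Collagen IV, the network former of basement membranes, showed both directions chain by chain. COL4A1 and COL4A2, which form the widespread network and share a promoter region, rose by 0.91 ± 0.04 and 1.22 ± 0.04. COL4A6 rose by 2.08. COL4A3 read 207, 168 and 159 in the parental line and 4.96, 5.95 and 2.54 in the clone, and COL4A4, its head to head neighbour on chromosome 2, 205, 172 and 195 against 5.95, 8.18 and 8.90. Both fell, at -5.08 ± 0.27 and -4.48 ± 0.21, with reads over the 3 clone libraries of 15 and 24. COL8A1 fell as well (-5.02, 166 reads against 5). The fibrillar collagen I chain COL1A1 changed from 1559.6, 1459 and 1526 to 442, 427 and 483 (-1.75 ± 0.06). COL18A1, of basement membranes, and COL7A1, the anchoring fibril below the hemidesmosome, fell too, at -2.01 and -1.03. Collagens XVII and VII, which meet at the same attachment, thus moved in opposite directions.

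**Figure D3:**
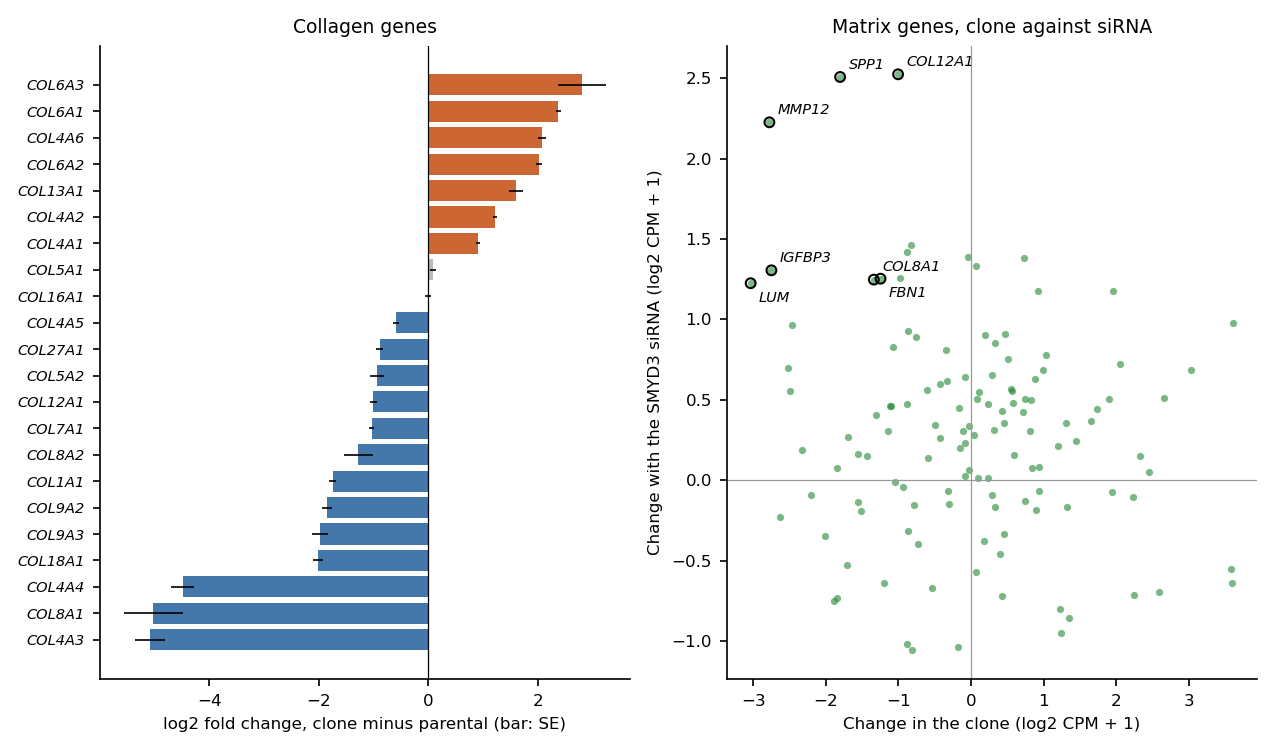
Left, log2 fold change (clone minus parental) of the 22 tested collagens with SE bars, grey where not called. Right, the change of each matrix gene in the clone (x axis) against its change with the siRNA (y axis), both on the log2(CPM + 1) scale, with circles around 7 genes that were lower by 2-fold or more in the clone and higher by 2-fold or more with the siRNA. The circled genes lie in the upper left, LUM and MMP12 the farthest to the left among them.

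Glycoproteins of the matrix stood at 11 higher and 21 lower of 40 tested (10 and 28 with upper quartile factors). Those that rose include ligands of the integrins above. Fibronectin (FN1) read 2496, 2444 and 2544 in the parental line and 10331, 11175 and 10358 in the clone, a rise of 2.09 ± 0.04 (adjusted p = 1.74e-15). Thrombospondin 1 (THBS1), a matricellular protein that binds CD36, CD47 and TGF-β, read 10750.4, 11293 and 10611 against 88961, 94567 and 87937, a rise of 3.06 ± 0.03. Tenascin C (TNC) and the basement membrane linker nidogen 2 (NID2) rose by 1.77 and 2.24. No parental library reached a clone library for these 4 genes. Lumican (LUM), a small proteoglycan that organises collagen fibrils, read 377, 348 and 369 in the parental line and 15.9, 14.9 and 16.5 in the clone (49 reads over its 3 libraries), and fell, at -4.45 ± 0.14. It is also 1 of the 3 fibroblast markers that passed the filter, all of which were lower. Fibulin 4 (EFEMP2), needed for elastic fibres, fell, at -3.95 (23 clone reads), thrombospondin 3 (THBS3) at -3.25, and tenascin X (TNXB) at -3.01 (30 reads over the 3 clone libraries). IGFBP3, a secreted binder of insulin-like growth factors, read 3699, 3413 and 3795 against 516, 552 and 489, a change of -2.81 ± 0.06. Thrombospondins 1 and 3 and tenascins C and X thus split within their families.

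The enzymes that modify and cut the matrix also rose and fell member by member. Of 21 collagen processing genes 11 were higher and 8 lower, with 2 and 6 at 2-fold or more and a median of 0.36 that became negative with equal totals. Transglutaminase 2 (TGM2), which crosslinks matrix proteins, read 1586, 1592 and 1456 in the parental line and 19760.3, 18986 and 19698 in the clone, a rise of 3.66 ± 0.04. The lysyl oxidase relatives went apart: LOXL2 rose by 0.84 and LOXL4 fell, at -3.92 ± 0.18, from 266, 213 and 241 to 17.8, 11.9 and 15.3 (46 clone reads). PLOD3, a lysyl hydroxylase, and P4HA2, a prolyl hydroxylase subunit, rose by 1.34 and 0.79. PCOLCE, the enhancer of procollagen C-proteinase, P3H3, a prolyl 3-hydroxylase family member, and ADAMTS14, a procollagen N-proteinase, fell, at -2.62, -3.05 and -4.12, the last 2 with 34 and 11 clone reads.

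Proteases and their inhibitors stood at 24 of 34 higher and 9 lower (19 and 11 with upper quartile factors). The urokinase receptor (PLAUR), which focuses plasminogen activation on the cell surface, read 661, 695 and 604 in the parental line and 4263, 3992 and 4172 in the clone. It rose by 2.66 ± 0.05, with no overlap. The metalloprotease disintegrins ADAM19 and ADAM12 and the aggrecanase ADAMTS1 rose by 3.65, 3.43 and 3.55 (ADAMTS1 from 25 to 303 reads over 3 libraries each), and gelatinase A (MMP2) by 2.33 ± 0.05. MMP12, a metalloelastase, read 249, 207 and 233 against 1.98, 6.70 and 7.63 (708 and 17 reads over 3 libraries each) and fell, at -5.30 ± 0.34. Stromelysin 2 (MMP10), matrilysin (MMP7) and the membrane-bound inhibitor RECK fell as well, at -2.46 (26 clone reads), -2.26 and -1.48. In the hyaluronan list 5 of 7 genes were higher (71.4%) and 1 lower (14.3%), beside 48.1% and 37.1% of nuclear protein-coding genes at its level. The list's median of 0.34 became negative with equal totals. The synthase HAS3 rose by 2.37 and the depolymerising protein CEMIP by 2.86, while the hyaluronidase HYAL1 fell, at -1.32.

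Matrix genes made up 7 of the 9 genes of the 5 groups that were called at least 2-fold apart from their controls in opposite directions in the clone and with the siRNA. The comparison held 125 matrix, 272 mitochondrial, 150 lipid, 112 chaperone and 98 adhesion genes, and the share over all genes was not counted. With the siRNA 72 of the 125 matrix genes were higher and 24 lower. With the siRNA 30 of 41 matrix glycoproteins and proteoglycans were higher and 3 lower, with a median change of 0.46, and 27 of these 41 had a clone change below the siRNA change and 7 one above it. Over all genes 29.3% were higher and 31.8% lower with the siRNA. MMP12 changed by -2.78 in the clone and by 2.23 ± 0.11 with the siRNA, LUM by -3.04 and 1.23 ± 0.08, and IGFBP3 by -2.75 and 1.31 ± 0.07, on the log2(CPM + 1) scale. With the ASO the same genes changed by 0.23 ± 0.14, -0.30 ± 0.10 and 0.32 ± 0.09. FN1 and THBS1, which rose in the clone, changed by 0.73 ± 0.11 and 0.68 ± 0.10 with the siRNA and by -0.09 ± 0.13 and 0.07 ± 0.12 with the ASO. For collagens 8 of 22 had a clone change above the siRNA change and 12 one below it. In the proteases these counts were 18 and 12 of 34, beside 41.9% above and 34.7% below over all genes.

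Among chaperones, single members of large change stood beside others that fell. Cytosolic heat shock proteins were at 16 of 26 higher (61.5%) and 7 lower (26.9%), against 14 and 10 with upper quartile factors. Of nuclear protein-coding genes at the same level 68.9% were higher and 21.96% lower, with a median of 0.43 beside 0.46 for the list. The list's share of reads outside mitochondrially encoded genes went from 0.743% to 1.29%, a sum weighted towards abundant members such as HSPA8. The stretches before the start sites of 4 members are shown because their genes moved by different sizes and directions while each holds GAANNTTC, the core of the heat shock element that heat shock factors bind, in capitals. They are RefSeq sequences on GRCh38.p14, the 250 bases before the start, 5′ to 3′ on the gene's strand, at chr11:123062137-123062386 (minus strand) for HSPA8, chr6:44247693-44247942 (plus, 1 of 3 annotated windows) for HSP90AB1, chr6:31815293-31815542 (plus) for HSPA1A and chr7:76302423-76302672 (plus) for HSPB1. Of the 3 annotated HSP90AB1 windows only the 1 shown holds the core.
HSPA8: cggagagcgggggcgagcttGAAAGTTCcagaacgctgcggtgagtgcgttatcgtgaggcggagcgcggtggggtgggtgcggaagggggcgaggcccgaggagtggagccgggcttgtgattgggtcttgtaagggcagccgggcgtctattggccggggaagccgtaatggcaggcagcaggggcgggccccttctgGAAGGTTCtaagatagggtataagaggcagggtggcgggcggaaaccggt
HSP90AB1: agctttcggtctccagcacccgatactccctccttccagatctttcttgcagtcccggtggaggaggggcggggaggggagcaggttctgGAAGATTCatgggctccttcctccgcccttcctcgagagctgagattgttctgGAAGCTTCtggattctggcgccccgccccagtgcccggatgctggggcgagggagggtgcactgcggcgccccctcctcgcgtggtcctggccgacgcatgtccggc
HSPA1A: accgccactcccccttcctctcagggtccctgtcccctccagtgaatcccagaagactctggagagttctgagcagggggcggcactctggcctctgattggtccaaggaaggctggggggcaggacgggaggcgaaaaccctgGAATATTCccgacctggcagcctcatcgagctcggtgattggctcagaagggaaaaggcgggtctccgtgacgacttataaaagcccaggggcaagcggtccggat
HSPB1: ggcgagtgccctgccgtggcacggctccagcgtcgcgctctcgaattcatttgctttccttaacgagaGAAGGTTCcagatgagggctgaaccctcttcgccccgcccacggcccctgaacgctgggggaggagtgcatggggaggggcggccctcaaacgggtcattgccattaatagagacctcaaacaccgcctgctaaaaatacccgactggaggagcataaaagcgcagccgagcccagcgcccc
The core reads the same on both strands. It is in 5.78% of the 35116 windows of all genes, in 16% of the 144 windows of the chaperone genes and in 13 of the 39 windows of the cytosolic list. It begins at -230 and -50 in HSPA8, at -160 and -107 in HSP90AB1, at -106 in HSPA1A and at -182 in HSPB1, and nothing about a factor follows from these letters.

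HSPA8 read 9403, 10641 and 9942 normalised counts in the parental libraries and 89712, 89075 and 87606 in the clone, and HSPA8 rose by 3.15 ± 0.04 (SE, adjusted p = 2.46e-17). The HSP90 genes HSP90AB1 and HSP90AA1 rose by 1.37 ± 0.03 and 0.97 ± 0.03, the first from 46621, 47071 and 45105 to 120135, 120153 and 119027. Groups did not overlap for any of the 3. The stress-inducible HSP70 genes moved less: HSPA1B rose by 0.73 ± 0.04 and HSPA1A changed by 0.18 ± 0.04 (adjusted p = 5.00e-04), which turned to -0.10 with upper quartile factors and -0.19 with equal totals. HSPA1A and HSPA1B are near-identical copies, so how their reads were divided is uncertain. Small heat shock protein HSPB1 read 10892, 8919 and 9782 in the parental line and 5481, 4715 and 5644 in the clone and fell, at -0.90 ± 0.09, while HSPB8 rose by 1.92. HSPA2, the HSP70 best known from testis, fell, at -2.63 ± 0.06, and HSPA12A, a distant HSP70 relative, at -1.44. DNAJA1, an HSP40 that delivers clients to HSP70, rose by 1.65 ± 0.03. With the siRNA HSPA8 changed by 0.44 ± 0.07 and HSPB1 by -0.33 ± 0.13, and with the ASO by 0.68 ± 0.09 and -0.05 ± 0.15, so the clone's HSPA8 change exceeded the others by 2.69 ± 0.10 and 2.45 ± 0.11 (limma adjusted p = 6.31e-15 and 5.12e-13).

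**Figure D4:**
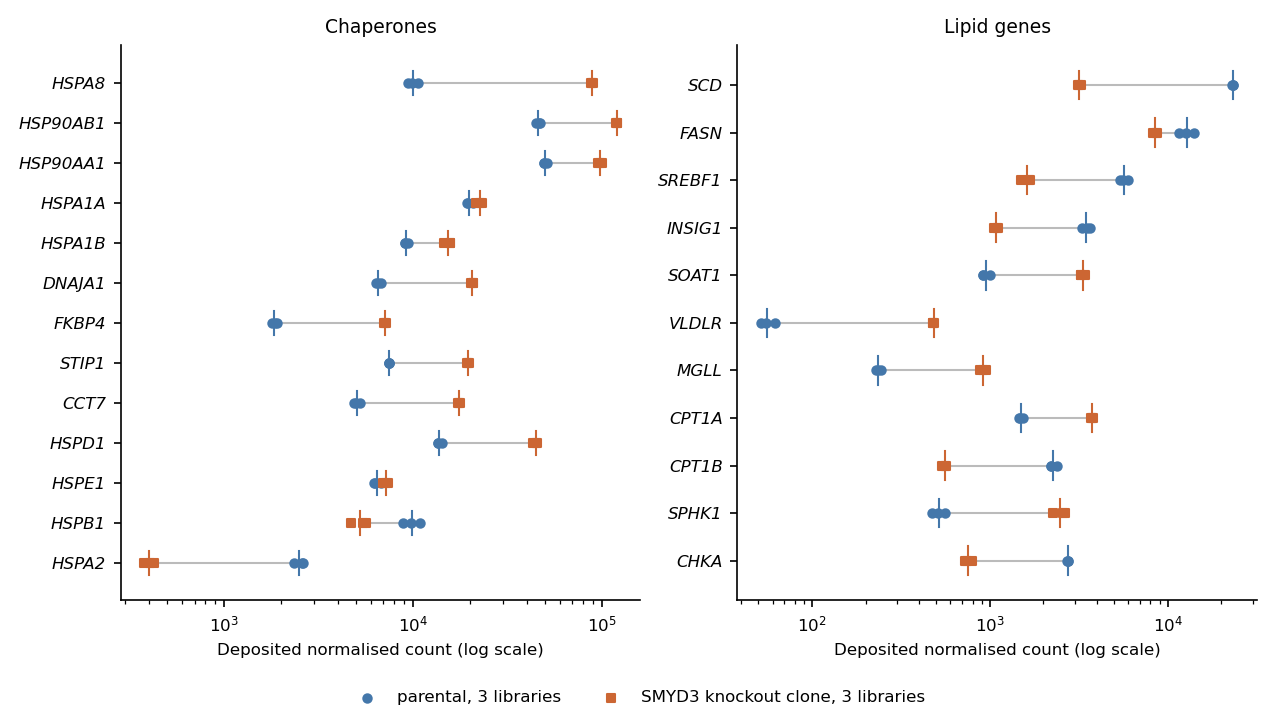
Normalised counts (log axis) of 13 chaperone genes and 11 lipid genes in each library, 1 point per library, parental and clone in different colours, with short bars at group means. Clone points lie above parental points for HSPA8, FKBP4, HSPD1 and VLDLR and below for HSPB1, HSPA2, SCD, SREBF1, INSIG1 and CPT1B.

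Of 24 cochaperones of HSP70 and HSP90 and heat shock factors 18 were higher and 1 lower, against 14 and 6 with upper quartile factors and 11 and 8 with equal totals. As scaled by the authors, 75% were higher and 4.17% lower, beside 68.9% and 21.96% of nuclear protein-coding genes at the same level. FKBP4, an HSP90 cochaperone of steroid receptors, rose by 1.94 ± 0.04, from 1906, 1801 and 1856 to 7210.2, 7026 and 7095. The nucleotide exchange factor BAG1, the HSP70 to HSP90 bridge STIP1 and the HSP90 cochaperone TTC4 rose by 1.65, 1.39 and 1.02. The 1 called lower as scaled by the authors was heat shock factor 2 (HSF2, -0.38), and heat shock factor 1 (HSF1) changed by 0.20, which turned to -0.0796 with upper quartile factors and -0.17 with equal totals. Of the CCT chaperonin, which folds actin and tubulin, and its prefoldin helper, 13 of 16 genes were higher and 2 lower (10 and 4 with upper quartile factors). That is 81.25% and 12.5%, beside 73.6% and 18.8% of nuclear protein-coding genes at the same level. CCT7 and CCT4 rose by 1.80 ± 0.03 and 1.71 ± 0.03, CCT6A and CCT5 by 1.04 and 1.01, and the 2 lower genes as scaled by the authors were the prefoldins PFDN5 and PFDN6 (-0.58 and -0.55). With the siRNA 11 of these 16 genes were lower and 3 higher (median -0.21), with the ASO 9 were higher and none lower (median 0.20, beside 10.4% higher and 8.22% lower of all genes), and 14 of 16 had a clone change above that of the siRNA and 1 below it.

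Folding genes of the endoplasmic reticulum did not move as a block, with 17 of 30 higher and 8 lower (12 and 15 with upper quartile factors) and a median of 0.22 that became negative with upper quartile factors and with equal totals. HYOU1, an HSP70 relative of the lumen, read 4077, 4018 and 3991 in the parental line and 13842, 14113 and 13990.3 in the clone, a rise of 1.79 ± 0.03. Calnexin (CANX), the glycoprotein chaperone, and DNAJB9 rose by 1.13 and 1.12. The prolyl isomerases split: FKBP9 rose by 1.21, while FKBP7, FKBP10 and FKBP11 fell, at -2.42, -2.34 (30 clone reads) and -1.51. FKBP10 serves collagen folding, as does cyclophilin B (PPIB), which changed by -1.10 ± 0.03. The oxidase ERO1B fell, at -1.74. With the siRNA 25 of these 30 genes were higher and 3 lower, and 16 had a clone change below the siRNA change against 8 above it.

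In mitochondria 13 of 18 chaperones and proteases were higher and 4 lower (12 and 6 with upper quartile factors). That is 72.2% and 22.2%, near the 68.9% and 21.96% of nuclear protein-coding genes at the same level. HSPD1, the HSP60 barrel, read 13618, 14235 and 13560.5 in the parental line and 45086, 45501 and 43487 in the clone, a rise of 1.69 ± 0.03. HSPE1, its lid, read 6323, 6786 and 6248 against 7399.6, 6946 and 7234, a change of 0.16 ± 0.04 (adjusted p = 0.00192) that turned to -0.12 with upper quartile factors and -0.21 with equal totals. The genes lie head to head on chromosome 2 and share a promoter region, and their changes differ in size. DNAJA3 and GRPEL1, partners of the mitochondrial HSP70, and the inner membrane protease YME1L1 rose by 1.39, 1.24 and 1.21. The inner membrane proteases SPG7 and OMA1 fell, at -1.10 and -0.83.

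Lipid genes were called higher and lower in similar numbers, at 40.9% and 45.0%, beside 59.2% and 28.7% of nuclear protein-coding genes at their level. The stearoyl-CoA desaturase gene was among those that fell. SCD, which makes monounsaturated fatty acids, read 23413, 22948 and 23387 in the parental line and 3138, 3249 and 3155 in the clone. It fell, at -2.87 ± 0.03 (7.31-fold lower, adjusted p = 1.16e-17), with no overlap. In the fatty acid synthesis list 7 of 23 genes were higher and 13 lower, and the list's share of reads outside mitochondrially encoded genes went from 0.329% to 0.199%. Fatty acid synthase (FASN) changed by -0.58 ± 0.06, the elongation enzyme TECR by -0.78, the desaturase family member FADS3 by -2.24 and the carbohydrate response factor MLXIPL by -5.82, from 742 reads in 3 parental to 10 in 3 clone libraries. The elongases ELOVL1 and ELOVL5 and ATP citrate lyase (ACLY), which makes cytosolic acetyl-CoA, rose by 1.12, 1.08 and 0.85. The siRNA changed SCD by 0.56 ± 0.06 and the ASO by -0.26 ± 0.07, and the clone's change minus theirs was -3.43 ± 0.09 and -2.61 ± 0.10.

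Sterol genes were at 16 of 32 higher and 13 lower (8 and 16 with upper quartile factors), and their median of 0.20 became negative with upper quartile factors and with equal totals. SREBF1, the SREBP-1 gene whose product drives lipid synthesis genes, read 5999.9, 5381 and 5581 in the parental line and 1667, 1504 and 1673 in the clone, a change of -1.81 ± 0.05. INSIG1, which retains the SREBP escort in the endoplasmic reticulum and is itself a target, read 3304, 3663 and 3497 against 1112, 1060.2 and 1091, a change of -1.68 ± 0.05. Neither gene's groups overlapped. SOAT1, which esterifies cholesterol, rose by 1.81. TM7SF2, a sterol reductase, the cholesterol exporter ABCA1 and the lysosomal carrier NPC2 fell, at -2.97, -1.64 and -1.38.

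Uptake and storage of fatty acids, with 12 of 30 genes higher and 13 lower (11 and 18 with upper quartile factors), moved by family member. The VLDL receptor (VLDLR) rose by 3.08 ± 0.11, from 55.3, 61.6 and 51.6 to 482, 486 and 481. Among fatty acid transporters SLC27A4 rose by 1.92 and SLC27A1 fell, at -2.08. The droplet coat genes PLIN4 and PLIN5 fell, at -2.58 and -3.01 (68 and 19 clone reads), while the monoglyceride lipase MGLL, the acyl-CoA synthetase ACSL5 and the triglyceride enzyme DGAT2 rose by 1.95, 1.50 and 1.54. For oxidation, 7 of 28 genes were higher and 13 lower (5 and 19 with upper quartile factors). CPT1A, the carnitine gate of mitochondria in most tissues, read 1542, 1464 and 1468 in the parental line and 3771, 3793 and 3685 in the clone, and its muscle type relative CPT1B 2199, 2376 and 2209 against 540.2, 559 and 569.5. CPT1A rose by 1.33 ± 0.04 and CPT1B fell, at -2.02 ± 0.05. The carnitine carrier SLC25A20 and the trifunctional protein subunit HADHA rose by 1.00 and 1.11, and the peroxisomal CROT fell, at -1.26.

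Phospholipid and sphingolipid genes were at 19 of 36 higher and 15 lower, with a median of 0.31 that became negative with equal totals. Sphingosine kinase 1 (SPHK1), which makes sphingosine 1-phosphate, rose by 2.27 ± 0.07, and phosphatidylserine synthase 1 (PTDSS1) by 2.14 ± 0.04. The ceramide synthases went apart, with CERS2 at 1.12 and CERS4 at -4.13 (54 clone reads). Both choline kinases, CHKA and CHKB, the entry to phosphatidylcholine, fell, at -1.85 and -1.67, and the arachidonate-releasing phospholipase PLA2G4A at -3.89 ± 0.20 (27 clone reads).

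Mitochondria showed their plainest change in their own genome. All 15 mitochondrially encoded genes tested were lower in the clone, 13 of them by 2-fold or more, with a median of -1.39. They took 15.7%, 15.2% and 14.9% of reads in the parental libraries and 4.88%, 4.82% and 4.83% in the clone (15.3% ± 0.402 against 4.84% ± 0.0345, SD, n = 3 each, exact permutation p = 0.1, the smallest that 3 against 3 can give). The change ran from -0.73 for MT-RNR1, the small ribosomal RNA, to -2.28 for MT-ND5, a complex I subunit. MT-ND5 read 185427, 167622 and 179029 in the parental line and 36755, 36686 and 35658 in the clone. MT-CO1, the core subunit of cytochrome oxidase, read 1412646, 1358838 and 1351173 against 455604, 465707 and 452896, and MT-ATP6, of ATP synthase, 185969, 171099 and 163399 against 67259, 65450.1 and 65808. None of the groups overlapped. With the siRNA 5 of the 15 were lower and none higher, with a median of -0.32, and all 15 had a clone change below that of the siRNA. The ASO table holds 0 reads for these genes and gives no value.

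The nuclear subunits of the respiratory chain, which assemble with the mitochondrially encoded ones, leaned lower by an amount that depends on the scaling. Of 78 tested, 27 were higher and 40 lower as scaled by the authors (median -0.19, 1 at least 2-fold higher and 4 at least 2-fold lower). With upper quartile factors 15 were higher and 54 lower (median -0.46, 12 at least 2-fold lower), and with equal totals 14 and 58 (median -0.55, 18 at least 2-fold lower). As scaled by the authors, 34.6% of the subunits were higher and 51.3% lower. Of nuclear protein-coding genes in the bin of their median level, 68.9% were higher and 21.96% lower. NDUFB1, NDUFV2 and NDUFA3 of complex I fell, at -1.74, -1.38 and -1.07, and NDUFA9 of the same complex rose by 0.82. COX5B, of cytochrome oxidase, changed by -1.02, and ATP5F1B, the catalytic subunit of ATP synthase, rose by 1.23 ± 0.03. The direction moved with coding length: of 45 subunits with a coding length up to 500 bases 9 were higher and 29 lower (median -0.38), and of 33 longer ones 18 were higher and 11 lower (median 0.17). Over all nuclear protein-coding genes the medians on the same split were -0.22 and 0.16. The part of transcript length in these values was not tested.

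Of 41 genes that keep, read and process the mitochondrial genome 26 were higher and 4 lower (median 0.41). This split narrowed to 22 and 15 with upper quartile factors (median 0.13) and to 18 and 16 with equal totals (median 0.04). TWNK, the replicative helicase, rose by 1.88 ± 0.05, from 633, 657 and 686 to 2450.3, 2498 and 2324. The transcription factors TFB2M and TFAM rose by 1.78 ± 0.07 and 0.90 ± 0.04, and LRPPRC, which stabilises mitochondrial mRNA, by 1.17 ± 0.04. PNPT1, an RNA exonuclease that is also induced by interferon, rose by 1.96 ± 0.09 and changed by 0.27 ± 0.07 with the siRNA and 1.34 ± 0.09 with the ASO. FASTK and TFB1M fell, at -0.71 and -0.48. With the siRNA 10 of 40 of these genes were higher and 14 lower, and 27 had a clone change above the siRNA change and 2 below it. Mitochondrial ribosomal proteins were at 43 of 76 higher and 23 lower (29 and 37 with upper quartile factors), with a median of 0.18 that became negative with upper quartile factors and with equal totals. At their level 59.2% of nuclear protein-coding genes were higher and 28.7% lower, against 56.6% and 30.3% here. MRPL37 and MRPS2 rose by 1.71 and 1.62 and MRPL18 and MRPS31 fell, at -1.29 and -1.28.

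**Figure D5:**
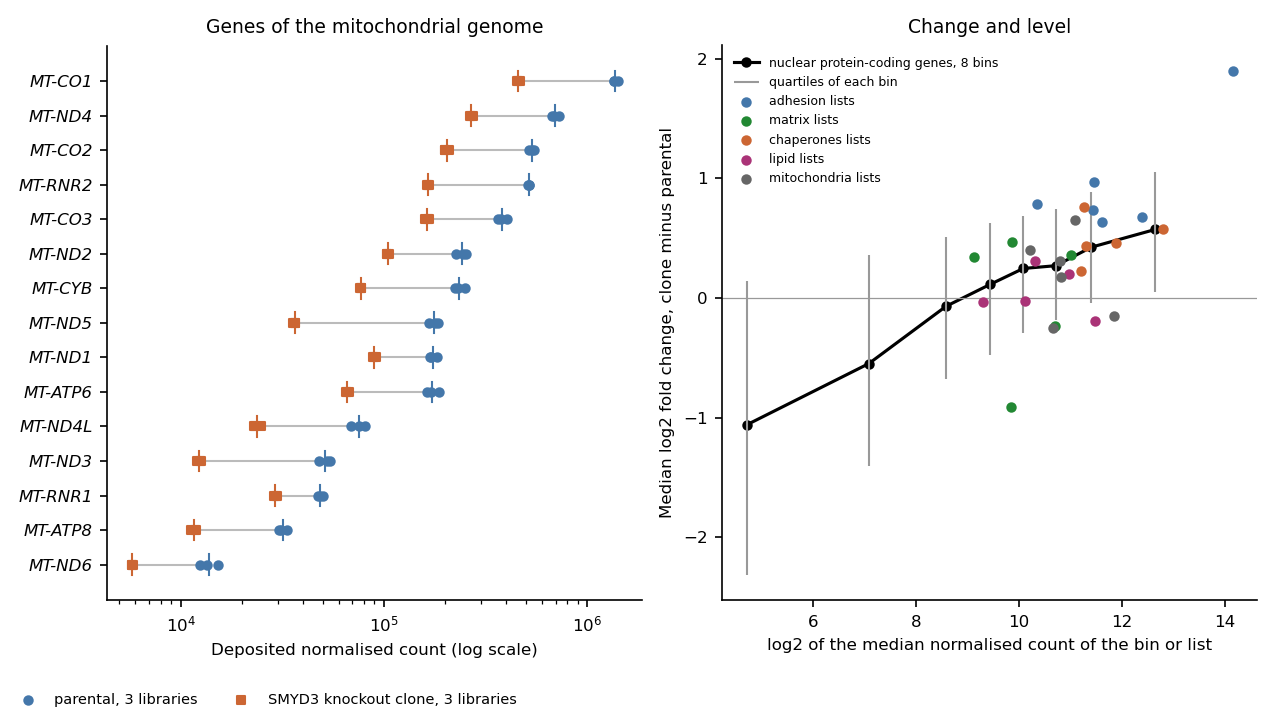
Left, normalised counts (log axis) of the 15 mitochondrially encoded genes in each library, 1 point per library, with a short bar at each group's mean. Right, the median log2 fold change (y axis) of nuclear protein-coding genes in 8 bins of mean normalised count (black line with quartiles) and of the gene lists other than the mitochondrially encoded one (coloured points) against log2 of the median normalised count (x axis), where the hemidesmosome list (1.90) lies far above the line and the collagens (-0.91) below it.

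Of 35 genes of import and inner membrane organisation 27 were higher and 5 lower, 8 of them at least 2-fold higher and none 2-fold lower. With upper quartile factors 21 were higher and 8 lower, and 1 was at least 2-fold higher, as with equal totals. As scaled by the authors, 77.1% were higher and 14.3% lower, beside 68.9% and 21.96% of nuclear protein-coding genes at the same level. CHCHD3, of the cristae-shaping complex, the fusion factor MFN2 and the translocase subunit TOMM22 rose by 1.50, 1.20 and 1.12. Of 29 citric acid cycle and pyruvate entry genes 20 were higher and 7 lower (13 and 10 with upper quartile factors), with a median of 0.31 that became negative with equal totals. Their 69.0% and 24.1% stand beside 59.2% and 28.7% of nuclear protein-coding genes at the same level. MDH2 read 2500.2, 2215 and 2403 in the parental line and 8327, 8039 and 8407 in the clone, a rise of 1.80 ± 0.04, and citrate synthase (CS) and OGDH rose by 1.27 and 1.29. IDH2, the mitochondrial NADP-linked isocitrate dehydrogenase, read 671, 643 and 703 against 188, 157 and 229, a change of -1.82 ± 0.11. Both subunits of the pyruvate carrier, MPC1 and MPC2, fell, at -1.23 and -0.87.

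Outside these groups and the interferon lists, the largest changes among genes with a mean of 2000 normalised counts or more in both groups gave a further 10 names. The chromatin protein HMGA1, the nucleolar helicase DDX21, the transferrin receptor TFRC, NIBAN2 and the NAD-salvage enzyme NAMPT rose by 2.81, 2.44, 2.41, 2.38 and 2.33. FOS, a subunit of AP-1, read 45959, 45184 and 43126 in the parental line and 2427, 2745 and 2429 in the clone and fell, at -4.14 ± 0.05. The nuclear noncoding RNA NEAT1, the epithelial factor ELF3 and the noncoding RNAs FER1L4 and UCA1 fell, at -2.64, -2.18, -2.03 and -1.89. The clone's fall of FOS stood beside the rise of laminin genes with AP-1 motifs, and no relation between them was tested. FOS changed by 1.00 ± 0.08 with the siRNA and by -0.61 ± 0.09 with the ASO.

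The median change of adhesion genes was 0.75 in the clone, 0.21 with the siRNA and 0.02 with the ASO. For chaperones the siRNA and ASO medians were 0.02 and 0.13, for matrix genes 0.31 and -0.09, and for mitochondrial genes -0.16 and 0.06, beside 0.46, 0.08 and 0.16 in the clone. Lipid medians were -0.03 in the clone, 0.01 with the siRNA and -0.01 with the ASO. The clone medians are on the log2(value + 1) scale and those of the siRNA and ASO on log2(CPM + 1), so their sizes do not compare directly. The mitochondrial median of the ASO covers 257 genes, without the mitochondrially encoded ones that are among the clone's 274. The clone's change differed from the siRNA's for 85 of 98 adhesion genes (86.7%), 106 of 125 matrix genes (84.8%), 91 of 112 chaperones (81.2%), 114 of 150 lipid genes (76%) and 207 of 272 mitochondrial genes (76.1%), beside 76.5% of all genes. It differed from the ASO's for 79 of 99, 102 of 125, 80 of 112, 113 of 151 and 188 of 257, beside 72.2% of all genes. The control groups of the 3 designs are separate libraries, so these differences also hold whatever sets the parental, siRNA control and PBS cultures apart.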

How the data were processed

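RNA was measured by sequencing of stranded, poly(A)-selected libraries, per the labels' protocols. Per the submitters' processing notes the work used hg38, bcl2fastq and Bowtie. The sources used here give no version, counting tool or annotation. The knockout table, as deposited by the authors, holds a signal: gene read counts divided by 1 factor per library. In every column, all values (100%) were whole multiples of that column's factor within 0.01, and the multiples are the recovered reads. The deposited siRNA and ASO tables hold whole-number counts. All columns used were matched to samples by their labels.

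The knockout table was tested with limma 3.58.1 (R 4.3.3, trend and robust options, two-sided) on log2(value + 1), for genes at 10 or more in at least 3 libraries, with Benjamini-Hochberg adjustment over all genes and calls below 0.05. An edgeR fit had been planned on counts. As the values are not counts, edgeR 4.0.16 and DESeq2 1.42.0 ran on the recovered reads as alternatives. Others were upper quartile factors, equal totals outside mitochondrial genes, a pseudocount of 5, a mean of 50 or more, no filter, a replicate block and each library left out. A log2 fold change on log2(value + 1) understates changes of low genes. The ratios and means are on the deposited scale. Differences between designs are contrasts in 1 limma fit of 16 libraries on log2(CPM + 1), for genes at 0.5 CPM or more in at least 2 libraries of either design. The TMM factors for it were computed within each design, not across the 16 libraries. Replicates differed by more than counting noise in every pair, so none is a library deposited again.

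The members and the gene lists (28 lists in 5 groups with 810 genes, and 6 marker lists) were chosen with earlier results of these data known. Named genes follow a rule: per list the called genes without overlap that rose most (4) or fell most (4), with a mean of 50 or more in 1 group, members against the majority of their list or not called, all mitochondrially encoded genes, and 5 genes per direction outside the lists. Not every gene named by it is reported. Named after their values were seen were CD151, PLEC, ITGA3, ITGA6, LAMA5, LAMB2, COL1A1, COL7A1, IGFBP3, MMP2, PLAUR, HSP90AA1, HSPA1A, HSPA1B, HSF1, HSPE1, FASN, TFAM, LRPPRC, SPP1, COL12A1, FBN1, TP63 and the keratins. Of the marker lists, simple epithelium stood at 2 of 4 higher and 2 lower, fibroblast at 0 higher and 3 lower of 3 tested, endothelium at 0 and 1 of 2, leukocyte at 1 and 2 of 3 and melanocyte at 0 and 1 of 1. Positions and gene types come from GENCODE release 29, promoters from RefSeq on GRCh38.p14.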

Additional observations from a re-analysis of the deposited data

Results flagged for a closer look

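Over all genes of the 5 groups, 9 changed by at least 2-fold in the clone and by at least 2-fold the other way with the SMYD3 siRNA, with the difference itself called. All values are on the log2(CPM + 1) scale, where the clone's change is taken against the parental line and the siRNA's against its control siRNA, and differences carry the SE of the limma fit. 8 of the 9 were lower in the clone and higher with the siRNA. The same count over all genes was not made.

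For MMP12, the metalloelastase, the clone minus siRNA difference was -5.01 ± 0.16 (clone -2.78, siRNA 2.23), with 17 reads left over 3 clone libraries. For osteopontin (SPP1), a secreted integrin ligand, it was -4.31 ± 0.13 (clone -1.80, siRNA 2.51), and for lumican (LUM) -4.26 ± 0.11 (clone -3.04, siRNA 1.23). IGFBP3 differed by -4.06 ± 0.10 (clone -2.75, siRNA 1.31) and COL12A1, a collagen that sits on fibrils, by -3.53 ± 0.10 (siRNA 2.53).

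COL8A1 differed by -2.59 ± 0.12, with 5 reads left over 3 clone libraries, fibrillin 1 (FBN1) by -2.50 ± 0.12 and the cholesterol exporter ABCA1 by -2.44 ± 0.12. MGLL, the monoglyceride lipase, stood the other way, higher in the clone by 1.80 and lower with the siRNA (-1.34), a difference of 3.13 ± 0.12. The genes were chosen by opposite changes of at least 2-fold, so a large difference follows from the choice. Its p-values are therefore not given as support. With the ASO none of the 9 changed by 2-fold against the clone's direction: the ASO changes were 0.23 for MMP12, -0.03 for SPP1, -0.30 for LUM, 0.32 for IGFBP3, -0.06 for COL12A1, -0.16 for COL8A1, -0.33 for FBN1, -0.29 for ABCA1 and -0.50 for MGLL.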

How the results depend on the processing

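Counts by direction moved with scaling. Genes at least 2-fold higher numbered 2432 as reported, 1574 with upper quartile factors and 1345 with equal totals outside mitochondrial genes, and genes at least 2-fold lower 3754 as reported and 2043 at a mean of 50 or more. With upper quartile factors 41 chaperones were lower, and 13 chaperones, 10 lipid and 10 mitochondrial genes at least 2-fold higher and 34 mitochondrial genes at least 2-fold lower. With equal totals 31 adhesion genes and 46 chaperones were lower, 85 mitochondrial genes higher, and 23 adhesion, 12 chaperone, 9 lipid and 8 mitochondrial genes at least 2-fold higher. The cause was not tested. Over protein-coding mitochondrial genes alone the share of reads was -9.167 percentage points from the parental value, against -10.45. The small changes that turned with upper quartile factors were PLEC (-0.10), HSF1 (-0.0796), HSPA1A (-0.10) and HSPE1 (-0.12), and with equal totals these were -0.19, -0.17, -0.19 and -0.21. No other called gene named here changed direction under these, DESeq2, TMM factors, another pseudocount, no filter or the loss of 1 library.

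Replicate numbers did not pair the libraries: the deviations of same-numbered libraries correlated at 0.01, 0.05 and -0.09. With a replicate block 7185 genes were higher and 7231 lower, and SMYD3 changed by -1.79. The knockout is 1 clone, no library lacks interferon, and the siRNA and ASO designs have their own controls. Level, gene type and transcript length moved with the changes, and their part was not tested.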
